A study of Homo sapiens with 12 samples.

Results

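The TM4SF genes encode the transmembrane 4 L6 proteins, and 6 of them (TM4SF1, TM4SF4, TM4SF5, TM4SF18, TM4SF19 and TM4SF20) were followed by symbol through a count table of 60648 genes. They were read in HCT116, a human colon carcinoma line, in 4 groups of 3 poly-A RNA-seq libraries each: MTHFD2-WT initial, MTHFD2-WT final, MTHFD2-KO initial and MTHFD2-KO final. Initial libraries were taken at time 0, directly after the knock-out had been made, and final libraries after 2 months of further culture, with all cells grown in the same serum-supplemented DMEM. The knock-out was made with CRISPR-Cas9 and is 1 isolated clone, so its libraries repeat that clone, and what belongs to the clone and what belongs to the loss of MTHFD2 cannot be told apart. The labels call the 3 libraries of a group biological replicates and do not say how they were separated, so p-values measure the spread between these libraries. TM4SF18 was chosen by its measured difference between the genotypes in these same libraries, and the others by the family name. The values of TM4SF18 are therefore described without a p-value, and tests are read only for the other members, the neighbouring genes and the related gene lists.

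Transmembrane 4 L6 proteins are small cell-surface proteins that cross the membrane repeatedly and resemble tetraspanins in shape without sharing their conserved cysteine motif. Like tetraspanins they gather integrins, receptors and other membrane proteins into patches of the plasma membrane and take part in adhesion, migration and endocytic traffic. TM4SF1 is the L6 tumour antigen of many carcinomas and is also abundant in endothelium. TM4SF4 and TM4SF5 are best known from liver and gut, TM4SF19 from osteoclasts and macrophages, and TM4SF20 from intestinal epithelium, where it controls the cleavage of the transcription factor CREB3L1. TM4SF18 is the least described member.

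TM4SF18 (ENSG00000163762.7), TM4SF1 (ENSG00000169908.12) and TM4SF4 (ENSG00000169903.7) lie side by side on chromosome 3 (GRCh38, the build named hg38 in the submitters' notes). TM4SF18 spans 149318498 to 149334414 on the minus strand, TM4SF1 spans 149369022 to 149377692 on the minus strand, and TM4SF4 spans 149474697 to 149503394 on the plus strand. The gap is 34.6 kb between TM4SF18 and TM4SF1 and 97.0 kb between TM4SF1 and TM4SF4. These spans and gaps are those of the count table. In GENCODE 29 the longest coding model of TM4SF18 has 6 exons and 201 codons, close to the 202 codons of TM4SF1 and of TM4SF4. TM4SF5 has 197, TM4SF20 has 229 and the longest TM4SF19 model 299. The 2 annotations differ in part. The GENCODE 29 models of TM4SF1 and TM4SF4 begin at 149377865 and 149473974, outside the spans given here. TM4SF19 (ENSG00000145107.16) is far off on the same chromosome (196319342 to 196338503, minus strand). TM4SF20 (ENSG00000168955.4) is on chromosome 2 (227362038 to 227381995, minus strand) and TM4SF5 (ENSG00000142484.7) on chromosome 17 (4771884 to 4783213, plus strand).

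The DNA upstream of the RefSeq start is shown for the 2 members with the most counts, TM4SF18 with 12918 over all libraries and TM4SF19 with 86. Each is the part of RefSeq's promoter window (GRCh38.p14) that overlaps no annotated exon, written 5′ to 3′ on the gene's own strand, with CpG dinucleotides in capitals. The stretch of TM4SF18 is chr3:149333762-149333886 on the minus strand, 125 bases without a CpG. That of TM4SF19 is chr3:196338504-196338638 on the minus strand, 135 bases with 4 CpGs. Neither stretch reaches the RefSeq start: 125 further bases lie between for TM4SF18 and 115 for TM4SF19, and these are not shown.
TM4SF18: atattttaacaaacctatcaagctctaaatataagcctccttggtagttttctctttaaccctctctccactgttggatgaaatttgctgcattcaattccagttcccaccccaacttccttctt
TM4SF19: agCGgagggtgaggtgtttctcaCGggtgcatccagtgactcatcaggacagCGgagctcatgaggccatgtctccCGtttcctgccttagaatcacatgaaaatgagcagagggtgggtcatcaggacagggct
Over the full 250 bases before the RefSeq start, TM4SF18 and TM4SF20 hold 2 CpGs each, TM4SF5 holds 3, TM4SF1 and TM4SF4 hold 4 each and TM4SF19 holds 12, where the median of 35116 RefSeq promoters is 11. Only 14.7% of those promoters hold fewer CpGs than TM4SF18. On either strand, the TM4SF18 window has no match to a TATA box (TATAAA, found in 10.7% of all promoters), a CCAAT box (CCAAT, 32%) or a GC box (GGGCGG, 42.6%). The windows of TM4SF5 and TM4SF19 have none of these matches either. TM4SF4 has a TATAAA and a CCAAT, TM4SF1 a CCAAT and a GGGCGG, and TM4SF20 has 2 CCAAT matches. The windows of TM4SF1 and TM4SF4 lie wholly within annotated exons (250 of 250 bases). Those of the other members lie there in part, with 125 bases for TM4SF18, 115 for TM4SF19, 54 for TM4SF20 and 2 for TM4SF5. The CpGs and matches of these windows are thus not only those of DNA outside exons. Of the 12 CpGs of TM4SF19, the printed stretch outside exons holds 4. These letters describe the windows only. TM4SF18 has several annotated starts, and counts per gene do not show which of them was used.

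TM4SF18 was the one family member with an appreciable transcript level, and its level split by genotype. Library totals lay between 38597809 and 40017561 counts, and values are in CPM, counts scaled to the TMM-adjusted size of each library. The initial wild-type libraries held 162, 97 and 120 counts of TM4SF18, or 3.96, 2.40 and 3.00 CPM. The initial knock-out libraries held 2004, 1903 and 1916 counts, or 50.5, 47.7 and 48.9 CPM. The groups were far apart: the lowest knock-out library was 12.1 times the highest wild-type library. Group means were 3.12 ± 0.786 CPM in the wild type and 49.0 ± 1.43 CPM in the knock-out (SD, n = 3). The log2 fold change from the fit of all genes was 3.97 (SE 0.144), a 15.7-fold higher level in the knock-out.

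At the final harvest the wild-type libraries held 43, 28 and 37 counts (1.17, 0.730 and 0.957 CPM) and the knock-out libraries 2239, 2298 and 2071 counts (56.3, 58.6 and 52.0 CPM). Again no library of one genotype came near the other, and the lowest knock-out library was 44.6 times the highest wild-type library. The means were 0.951 ± 0.219 and 55.7 ± 3.35 CPM (SD, n = 3). The log2 fold change was 5.87 (SE 0.169), or 58.4-fold. By size of the fitted log2 fold change TM4SF18 stood 6th from the top of 18289 tested genes at the initial harvest and 4th at the final one. As a background for that description, 8.55% of the tested genes were called higher in knock-out cells at the initial harvest and 8.38% at the final one, at a Benjamini-Hochberg adjusted p under 0.05 in edgeR's quasi-likelihood test (11.3% and 10.2% lower). The libraries of the genotypes did not overlap, with the knock-out higher, in 17.1% of tested genes initially and in 15.9% finally, and with it lower in 18.4% and 17.2%. All 6 knock-out libraries lay above all 6 wild-type libraries in 5.50% of tested genes.

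The wider gap at the final harvest came mostly with lower wild-type values. Between harvests the wild-type mean went from 3.12 to 0.951 CPM, a log2 difference of -1.71 (SE 0.191) at 30.5% of the initial level, and each final wild-type library lay below each initial one. The knock-out mean went from 49.0 to 55.7 CPM, a log2 difference of 0.18 (SE 0.118). The knock-out libraries of the 2 harvests did not overlap in CPM, with ratios of 1.03 to 1.23 between single libraries. On a scale per length (TPM, counts per exon length set to 1 fixed total in every library, without TMM scaling) they did overlap, at 38.7 to 42.5 and 40.8 to 46.8 TPM. Non-overlap of this kind is frequent in these libraries: 11.4% of tested genes lay wholly lower at the final harvest in the wild type and 11.9% wholly higher in the knock-out. The genotype difference was larger by 1.90 on the log2 scale at the final than at the initial harvest (SE 0.226), which is the interaction of genotype and time. TM4SF18 passed the threshold in 4 of the 5 comparisons, all but time in the knock-out, and nothing is read from that because the gene was chosen on these values. Called over time in the wild type were 3.05% of all genes as higher and 3.42% as lower, in the knock-out 0.837% and 0.640%, and in the interaction 0.809% and 0.476%.

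Per exon length, TM4SF18 went from a minor to a well-represented transcript. It had 2.71 ± 0.724 TPM in the initial and 0.678 ± 0.125 TPM in the final wild type, above 30.2% and 14.3% of the tested genes. In the knock-out it had 40.4 ± 1.9 and 43.6 ± 3.05 TPM, above 78.5% and 81.2% of them (SD, n = 3). The order of the 4 groups was thus final wild type, initial wild type, initial knock-out and final knock-out, and the last 2 are the neighbours whose TPM ranges overlapped. The spread between libraries, as a share of the mean CPM, was 25.2% and 23.0% in the wild-type groups and 2.92% and 6.02% in the knock-out groups. In bulk RNA a change in the share of cells with a transcript and a change in its amount per cell cannot be told apart.

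**Figure D1:**
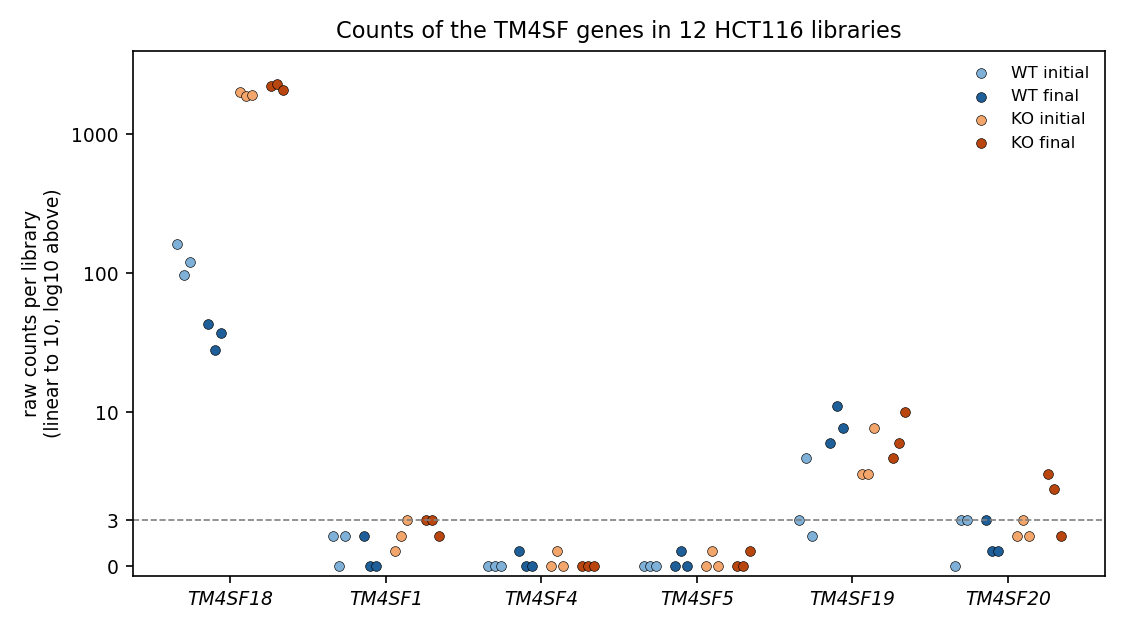
Raw counts per library (vertical axis, linear to 10 and log10 above) of the 6 TM4SF genes, 1 point for each of the 12 libraries, coloured by group, with a dashed line at 3 counts. TM4SF18 reaches 28 to 162 counts in the wild type and 1903 to 2298 in the knock-out, and no other member exceeds 11.

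The 5 other members had 142 counts in all, over 12 libraries, against 12918 for TM4SF18. None of the 5 passed the filter on low counts, so the filtered fit tested 1 of the 6 members. TM4SF1, TM4SF4 and TM4SF5 had 3 counts or fewer in every library, which is 0.0733 to 0.0814 CPM at these depths. A level of 3 counts was set as the floor here and is not a measured limit of detection. TM4SF1 still had a count in 9 of 12 libraries. No fold is given for these genes.

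TM4SF1, the neighbour of TM4SF18 on the same strand, had 2, 0 and 2 counts in the initial wild type and 2, 0 and 0 in the final wild type. It had 1, 2 and 3 counts in the initial and 3, 3 and 2 in the final knock-out. The sums were 4, 2, 6 and 8 counts, with exact 95% Poisson intervals of 1.09 to 10.2, 0.242 to 7.22, 2.20 to 13.1 and 3.45 to 15.8 (counting error only). The L6 antigen was thus at 3 counts or fewer in each of the 12 libraries.

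TM4SF4, the third gene of the cluster, was at 0 in 10 of 12 libraries and had 1 count in 1 final wild-type and 1 initial knock-out library. TM4SF5, the member tied to liver cells, was at 0 in 9 of 12 libraries and had 1 count in each of the other 3. A group sum of 0 counts has an exact 95% Poisson upper limit of 3.69 counts.

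TM4SF19 had counts in every library, though it shares exon bases with an antisense and a read-through gene. They were 3, 7 and 2 in the initial wild type, 8, 11 and 9 in the final wild type, 6, 6 and 9 in the initial knock-out and 7, 8 and 10 in the final knock-out. The 2 wild-type groups did not overlap, as in 10.8% of tested genes with the final harvest wholly higher, while the knock-out groups overlapped each other and the final wild type. Without the filter on low counts, its log2 difference over time in the wild type was 1.28 (SE 0.541), with an unadjusted p of 0.0178 and an adjusted p of 0.243 in edgeR's quasi-likelihood test, so it did not pass. TM4SF20 had 0, 3 and 3, then 3, 1 and 1 counts in the wild-type groups, and 2, 3 and 2, then 6, 5 and 2 in the knock-out groups. Its highest values fell in the final knock-out, whose lowest library still overlapped the other groups, and the final genotype difference without the filter was 1.25 (SE 0.814, edgeR adjusted p 0.488).

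In the fit without the filter, which took in 38860 genes, the 5 members gave 25 tests over the 5 comparisons (genotype at each harvest, time in each genotype, and the interaction of both). The smallest edgeR adjusted p among them was 0.243, 0 passed, and 1 had an unadjusted p under 0.05. DESeq2, run with the filter, tested none of the 5. These counts are too small to show that the 5 genes did not differ.

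Transcripts that share the loci were low as well. TM4SF18-AS1 (ENSG00000244468.1) runs antisense to TM4SF18 and shares 124 exon bases with it. It had 7, 1 and 2 counts in the initial and 2, 5 and 3 in the final wild type, 6, 4 and 4 in the initial and 10, 11 and 8 in the final knock-out, and it did not pass the filter. Whether counting used the strand is not given in the sources used here, so reads of the shared bases cannot be assigned to 1 of the 2 genes. Against 1903 to 2298 counts of TM4SF18 in the knock-out libraries, the 4 to 11 counts of the antisense gene are small. They weigh more in the final wild type, with 2 to 5 counts against 28 to 43 of TM4SF18. The counts of the antisense gene do not show how many reads of the shared bases were given to TM4SF18. TM4SF1-AS1 was at 0 in every library, and the read-through gene TM4SF19-DYNLT2B, with 814 exon bases in common with TM4SF19, had 1 count in all. TM4SF19-AS1 shares 539 exon bases with TM4SF19 and passed the filter with 6 to 46 counts a library, more than the 2 to 11 of TM4SF19, so the low counts of TM4SF19 cannot be assigned with certainty either. Its CPM was 0.494 ± 0.0716 in the initial wild type and 0.579 ± 0.405 in the initial knock-out (SD, n = 3), a log2 difference of 0.23 (SE 0.436, edgeR adjusted p 0.766) that was -0.33 without initial knock-out replicate 1. It passed in none of the 5 comparisons, with edgeR adjusted p-values from 0.530 to 0.966.

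The genes around TM4SF18 on chromosome 3 were compared in the same way, from a window of 1 Mb to either side. It holds 53 other genes, of which 9 passed the filter. The members TM4SF1 and TM4SF4 are not among these 9, so the nearest tested genes were HPS3, 145 kb away on one side, and WWTR1, 183 kb away on the other. HPS3 encodes a subunit of a complex that forms lysosome-related organelles, and WWTR1 encodes TAZ, a transcriptional co-activator of the Hippo pathway.

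None of the 9 differed on the scale of TM4SF18, which was chosen for its difference, so nothing is read from that contrast. WWTR1 measured 69.9 ± 7.71 CPM (wild type) and 65.8 ± 3.33 CPM (knock-out) at the first harvest (log2 fold change -0.09, SE 0.0971, edgeR adjusted p 0.581). At the final harvest it had 63.1 ± 6.18 and 67.0 ± 5.01 CPM (0.08, SE 0.0973, edgeR adjusted p 0.620). HPS3 measured 23.7 ± 1.2 CPM (wild type) and 28.3 ± 1.33 CPM (knock-out) at the first harvest (0.26, edgeR adjusted p 0.0623), and at the final harvest it was higher in the knock-out, with 26.4 ± 2.52 against 33.0 ± 2.65 CPM (0.32, SE 0.0918, edgeR adjusted p 0.0202). That last call was lost without final wild-type replicate 1 or final knock-out replicate 1 (0.25 in both), while the initial difference passed by DESeq2 (0.26) and without final wild-type replicate 1 (0.25). GYG1, which encodes the primer protein of glycogen synthesis, was higher in knock-out cells at the initial harvest (36.7 ± 2.55 against 50.3 ± 3.55 CPM; 0.46, SE 0.101, edgeR adjusted p 0.00411) and not called at the final one (0.16, edgeR adjusted p 0.310).

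HLTF, a DNA translocase of replication-fork repair, had log2 fold changes of -0.19 and 0.04 at the initial and final harvest, and the initial one passed without initial wild-type replicate 2 (-0.28). COMMD2 had -0.05 and -0.11, the ubiquitin ligase gene RNF13 had -0.01 and 0.01, the antisense gene WWTR1-AS1 had 0.51 and 0.59 at under 0.4 CPM, and the pseudogene UBQLN4P1 had -0.38 and 0.07. In all, 1 of the 9 neighbours passed at the initial harvest (11.1%, against 19.9% of all tested genes) and 1 at the final harvest (11.1%, against 18.5%). Their median log2 fold changes were -0.01 and 0.08, where the 1056 other tested genes of chromosome 3 had 0.00 and 0.01.

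Over time, 0 of the 9 neighbours passed in the wild type, in the knock-out or in the interaction by edgeR, with 0, 1 and 0 at an unadjusted p under 0.05, and DESeq2 called 0 in each. The wild-type count was 1 without final wild-type replicate 1. The shares called among all genes were 6.47%, 1.48% and 1.28%. In the wild type, where the log2 difference of TM4SF18 was -1.71, the neighbours ranged from -0.16 to 0.19.

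**Figure D2:**
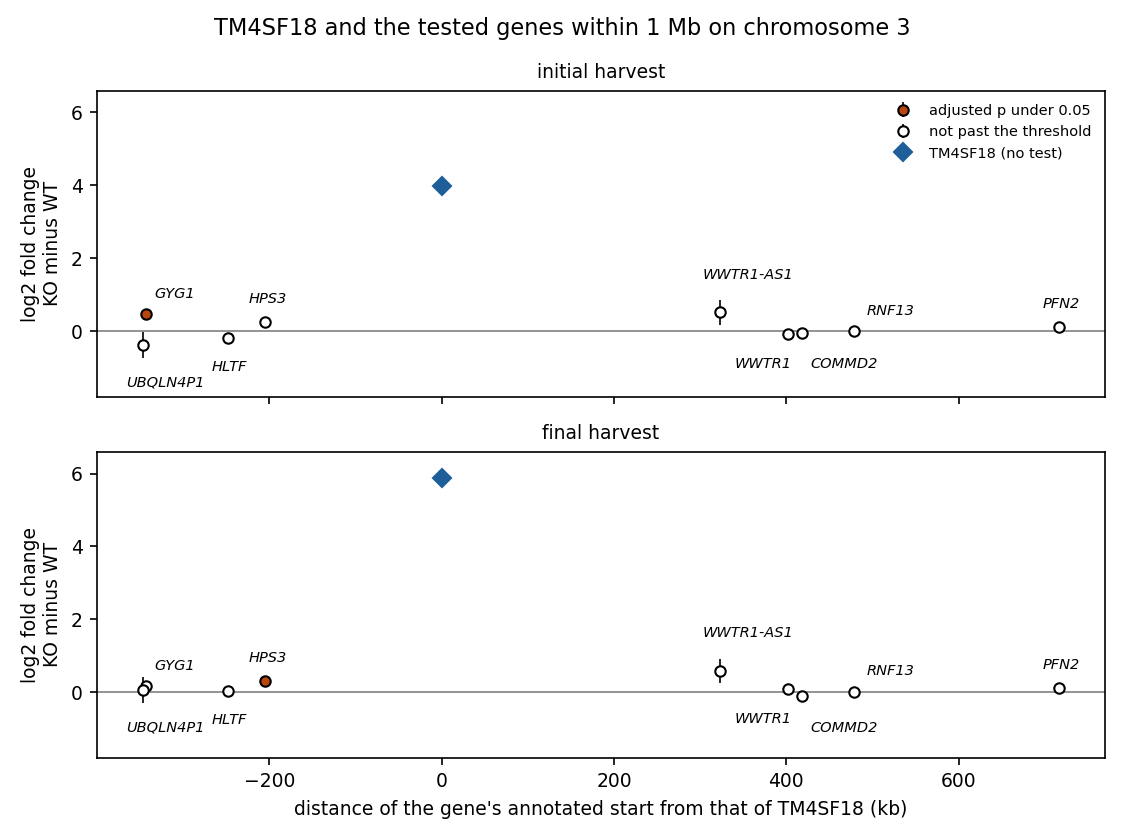
Log2 fold change of knock-out minus wild type (vertical axis, bars are SE) at each harvest against the distance of each gene's annotated start from that of TM4SF18 in kb (horizontal axis). TM4SF18 stands at 3.97 and 5.87, while the 9 tested neighbours lie between -0.38 and 0.59, with GYG1 past the threshold at the first and HPS3 at the last harvest.

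Tetraspanins proper are the proteins that transmembrane 4 L6 members resemble and mix with at the membrane. Of a list of 33 tetraspanin genes, 27 passed the filter. At the initial harvest 11 passed the test, with 4 above and 7 below the wild type (40.7%, against 19.9% of all genes), and at the final harvest 13 passed, 3 higher and 10 lower (48.1%, against 18.5%). Their median log2 fold changes were -0.06 and -0.23, beside 0.00 over all genes tested at both harvests. Without initial knock-out replicate 3 the initial count was 7. The list ranged from -2.27 to 1.24 at the initial and from -1.46 to 1.13 at the final harvest, short of TM4SF18. That gene was chosen for its difference, so nothing is read from this.

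TSPAN5 and TSPAN15 were lower in the knock-out at both harvests. TSPAN5 had 125 ± 3.34 against 63.9 ± 1.71 CPM at the initial harvest (log2 fold change -0.97, edgeR adjusted p 1.04e-07) and 153 ± 11 against 70.6 ± 1.89 CPM at the final one (-1.11, edgeR adjusted p 1.65e-08). TSPAN15 differed by -0.46 at both (edgeR adjusted p 0.00105 and 0.00106). TSPAN12, a co-receptor of the Norrin receptor Frizzled-4, was lower by -1.18 and -1.33 (edgeR adjusted p 3.27e-06 and 6.65e-07). TSPAN19, at under 1 CPM, was lower by -2.27 and -1.46 (edgeR adjusted p 0.00047 and 0.00742).

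TSPAN1, a tetraspanin of epithelial cells, was higher in the knock-out, with 35.5 ± 2.64 against 53.2 ± 3.79 CPM at the initial harvest (0.58, edgeR adjusted p 0.000814) and 28.0 ± 4.49 against 61.3 ± 3.35 CPM at the final one (1.13, edgeR adjusted p 9.29e-07). TSPAN13 was higher by 0.37 and 0.81 (edgeR adjusted p 0.00987 and 9.70e-06), and its initial call was lost without initial knock-out replicate 3 (0.31). TSPAN2 was higher at the initial harvest (1.24, edgeR adjusted p 0.000867) and not called at the final one (0.23, edgeR adjusted p 0.515), and the change of its difference between harvests did not pass (-1.01, edgeR adjusted p 0.149). TSPAN11 passed at the final harvest (1.01, edgeR adjusted p 0.0349) at under 1 CPM. That call was lost by DESeq2, with the 6 final libraries fitted alone, and without any 1 of 5 final libraries, down to 0.64 without final knock-out replicate 3. Of 6 well-known tetraspanins named after their values were seen, CD9, CD81, CD82 and CD151 passed at neither harvest. CD37 was lower at the initial harvest (-0.53, edgeR adjusted p 0.0122) and CD63 at the final one (-0.31, edgeR adjusted p 0.0353).

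**Figure D3:**
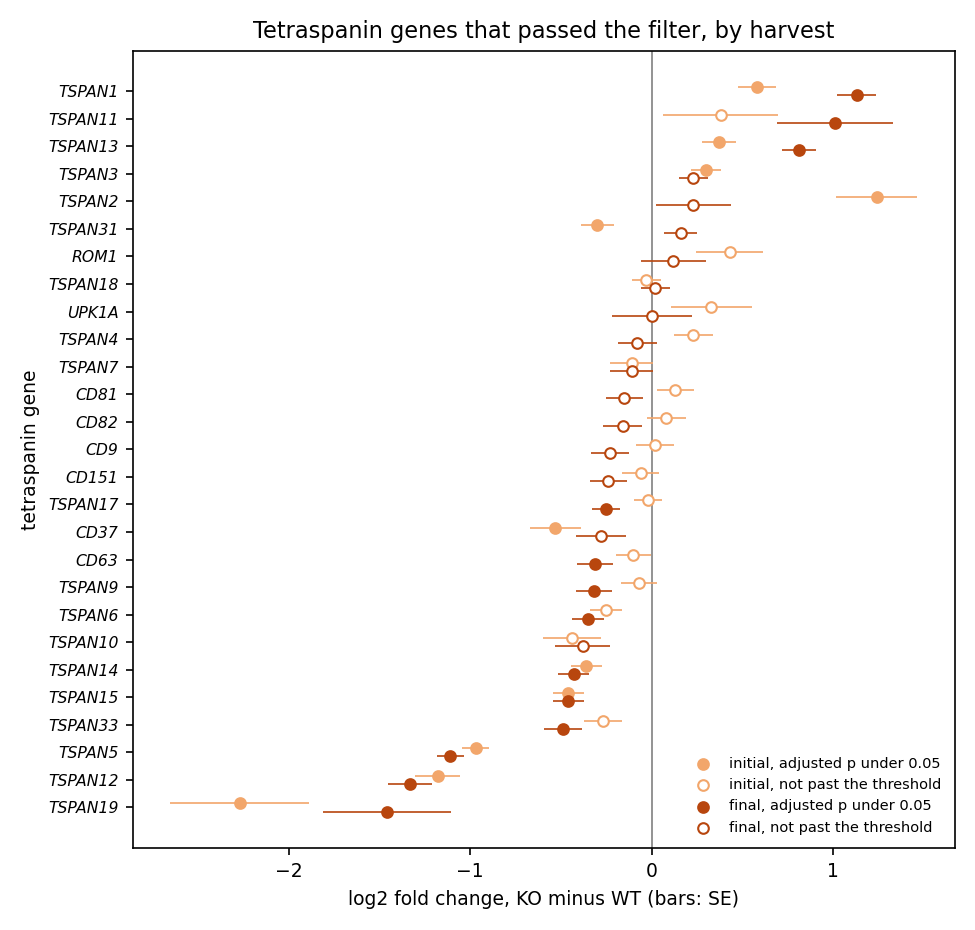
Log2 fold change of knock-out minus wild type (horizontal axis, bars are SE) of the 27 tetraspanin genes that passed the filter (vertical axis), at the initial and final harvest, with filled points where the adjusted p is under 0.05. TSPAN1 and TSPAN13 are higher at both harvests, and TSPAN5, TSPAN12, TSPAN14, TSPAN15 and TSPAN19 are lower at both.

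Integrins, the adhesion receptors that TM4SF5 and tetraspanins bind, had 23 of 26 genes past the filter. At the initial harvest 11 were called, 3 higher and 8 lower (47.8%, against 19.9%), and at the final harvest 9, 3 higher and 6 lower (39.1%, against 18.5%). The initial count was 7 without initial knock-out replicate 2 or initial wild-type replicate 3, and 6 without initial knock-out replicate 3. The medians were -0.32 and 0.03. ITGB1, the shared partner of most alpha chains, was lower in the knock-out at both harvests (-0.51 and -0.54, edgeR adjusted p 0.00188 and 0.00119). It had 628 ± 42.2 CPM (wild type) against 441 ± 13.6 CPM (knock-out), then 660 ± 81.5 against 454 ± 43.3 CPM. ITGA2, a collagen receptor chain, was lower by -1.09 and -0.73 (edgeR adjusted p 5.04e-05 and 0.00194), and ITGB5 by -0.62 and -0.36 (edgeR adjusted p 7.27e-05 and 0.00672).

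ITGB4, the hemidesmosome chain, was higher at the initial harvest (917 ± 70.8 against 1300 ± 151 CPM; 0.50, edgeR adjusted p 0.00722) and not called at the final one (0.24, edgeR adjusted p 0.199), where it passed without final wild-type replicate 1 (0.36). ITGB2, the leukocyte chain, was higher by 2.20 and 1.90 from 0.148 ± 0.0488 and 0.256 ± 0.0724 CPM in the wild type (edgeR adjusted p 7.73e-05 and 8.3e-05). ITGB8, a chain that activates TGF-beta, was lower at the initial harvest (26.5 ± 7.81 against 15.2 ± 0.612 CPM; -0.80, edgeR adjusted p 0.00298) and higher at the final one (12.1 ± 0.573 against 22.4 ± 3.91 CPM; 0.89, edgeR adjusted p 0.00148). ITGA9 was higher by 0.47 and 0.69 (edgeR adjusted p 0.0263 and 0.00306), and ITGAX was lower by -0.65 and -1.18 (edgeR adjusted p 0.0184 and 0.000139). The initial call of ITGA9 was lost without any 1 initial library other than wild-type replicate 1 (0.41 to 0.50), and that of ITGAX without initial knock-out replicate 1 or 3 or initial wild-type replicate 3 (-0.65, -0.53 and -0.56).

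A list of 12 proteins described as partners or effectors of transmembrane 4 L6 proteins was read in the same way. All 12 passed the filter, 3 were called at the initial harvest (25%, against 19.9%) and 1 at the final harvest (8.33%, against 18.5%), and these counts moved between 1 and 4 and between 0 and 3 under the alternatives. BCAR1, an adaptor of focal adhesions, was higher at the initial harvest (4.68 ± 0.648 against 6.84 ± 0.539 CPM; 0.55, edgeR adjusted p 0.00741). AKT1 was higher by 0.25 (edgeR adjusted p 0.0327) and DDR1, the collagen receptor that TM4SF1 binds, was lower by -0.26 (edgeR adjusted p 0.0499) at the initial harvest. The AKT1 call held in 10 of 17 alternatives and the DDR1 call in 3 of 17. Neither held when any 1 initial knock-out library was left out, with values of 0.24 to 0.28 for AKT1 and -0.30 to -0.21 for DDR1. IGF1R was higher at the final harvest (0.38, edgeR adjusted p 0.0244), a call lost without final wild-type replicate 2 or 3 (0.35 in both) or final knock-out replicate 2 (0.29).

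The same lists were read over time. Among tetraspanins, TSPAN2 and TSPAN5 rose in the wild type (1.04 and 0.29, edgeR adjusted p 0.0117 and 0.0246) and TSPAN31 fell (-0.42, edgeR adjusted p 0.0109), 3 of 27 (11.1%, against 6.47% of all genes), and 0 were called without final wild-type replicate 3. In the knock-out TSPAN4 fell (-0.54, edgeR adjusted p 0.016), 1 of 27 (3.70%, against 1.48%), a call that was lost without final knock-out replicate 1 or initial knock-out replicate 1 or 2. TSPAN31 and TSPAN4 were named after their values were seen. Among integrins, ITGAX rose (0.74, edgeR adjusted p 0.015) and ITGB8 fell (-1.14, edgeR adjusted p 0.000727) in the wild type, 2 of 23 (8.70%, against 6.47%). By edgeR 0 integrins were called in the knock-out, with 1 at an unadjusted p under 0.05 and 1 by DESeq2. The interaction had 0 tetraspanins by edgeR (5 at an unadjusted p under 0.05, 2 by DESeq2) and 1 integrin, ITGB8 (4.35%, against 1.28% of all genes). The 12 partners had 0 calls by edgeR in the wild type, the knock-out and the interaction, with 3, 3 and 2 at an unadjusted p under 0.05 and 1, 0 and 0 by DESeq2.

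Likeness was measured among 12606 other genes whose log2 CPM averaged 1 or more. The 4 whose log2 CPM followed TM4SF18 most closely over the 12 libraries were SNTB1, SPARC, BDNF and PIK3R1, with Pearson correlations of 0.995, 0.993, 0.992 and 0.991. These are descriptions: the libraries form 2 separate genotype clusters, and 77 genes had a correlation of at least 0.95. All 4 share with TM4SF18 a higher level in the knock-out and a lower final than initial wild-type level. That likeness follows from the way they were chosen. Over time in the knock-out they differ from TM4SF18, whose mean went from 49.0 to 55.7 CPM. The final knock-out means of SNTB1, SPARC and BDNF were lower than the initial ones, and that of PIK3R1 was the same. SNTB1, a syntrophin of the dystrophin complex, had 14.4 ± 1.05 and 8.12 ± 0.717 CPM in the wild type and 79.7 ± 1.67 and 73.7 ± 3.39 CPM in the knock-out (SD, n = 3, initial before final). SPARC, a matrix glycoprotein, had 44.5 ± 6.08 and 20.0 ± 3.03 CPM, then 273 ± 14.7 and 217 ± 8.19 CPM. BDNF, a neurotrophin, had 97.3 ± 4.48 and 67.8 ± 1.26 CPM, then 238 ± 11.3 and 213 ± 13.2 CPM. PIK3R1, the regulatory subunit of PI3-kinase, had 29.9 ± 3.02 and 20.4 ± 0.813 CPM, then 59.3 ± 1.44 and 59.3 ± 4.49 CPM.

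**Figure D4:**
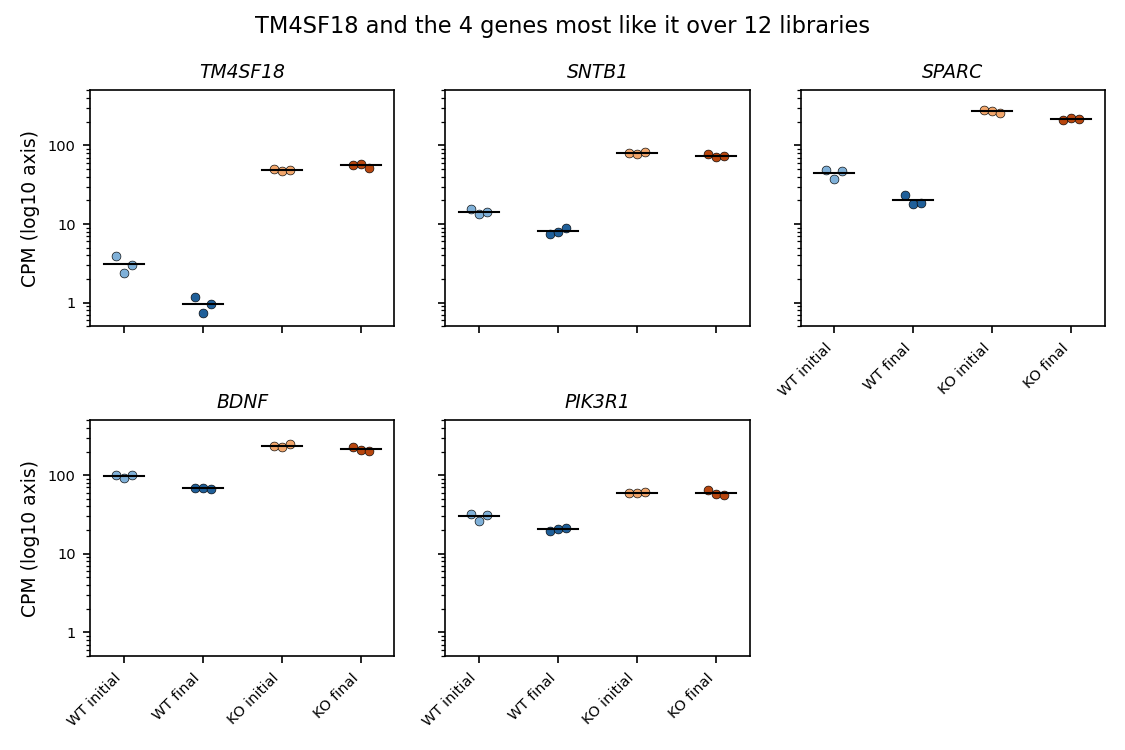
CPM per library (vertical log10 axis, the same in all panels) of TM4SF18 and the 4 genes most like it, by group, with points for the 3 libraries and a bar for their mean. In each panel the knock-out libraries lie above all wild-type libraries and the final wild type lies lowest, with TM4SF18 going from 3.12 and 0.951 CPM in the wild type to 49.0 and 55.7 CPM in the knock-out.

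The labels were set beside the targeted gene and cell type markers. MTHFD2 had 319 to 457 CPM in the 6 wild-type and 123 to 155 CPM in the 6 knock-out libraries, lower in each of the latter but not absent. Of 9 markers of intestinal epithelium, 8 were above 3 counts in some library, with a summed level of 2550 to 3330 TPM in the wild type and 2150 to 2550 TPM in the knock-out, while CDX1 was at 3 counts or fewer throughout, VIL1 reached 12 counts at most and KRT20 27. These markers do not tell HCT116 from other epithelial cells. Endothelial cells also express TM4SF18 and TM4SF1, so their 8 markers were summed: 15.3 to 20.3 TPM in the wild type and 11.1 to 14.5 TPM in the knock-out. CDH5 was at 3 counts or fewer in every library, and ESAM, which epithelial cells also express, gave most of the sum with 17.2 TPM in the initial wild type and 11.4 TPM in the initial knock-out. KDR and PECAM1 lay the other way, with KDR at 0.421 and 0.400 TPM in the wild type and 0.687 and 0.692 TPM in the knock-out, and PECAM1 at 0.141 and 0.133, then 0.218 and 0.163 TPM (initial before final). Fibroblast markers summed to 22.6 to 30.3 TPM in the wild type and to 23.1 TPM at most in the knock-out, nearly all from COL1A1, with 3 of the 6 at 3 counts or fewer. Blood markers summed to 0.939 to 1.59 TPM in the wild type and 2.40 to 4.07 TPM in the knock-out, mostly from LYZ, with PTPRC and CD3E at 3 counts or fewer, and liver markers to 1.92 to 3.14 and 3.00 to 5.02 TPM. The part of these cell types in the level of TM4SF18 was not tested.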

How the data were processed

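RNA of 12 HCT116 libraries (3 in each of 4 groups, taken from the labels) was sequenced after poly-A selection. The deposited values are raw, unnormalized counts of each gene in each library, in the layout that featureCounts writes, per the file headers. STAR, featureCounts, Subread and the build hg38 are named in the submitters' processing notes, without versions. Annotation release, strand use and multi-mapping are not given in the sources used here. A single gene was broken over 5 lines, which were left out, and 60648 genes remained. All 37318 gene IDs that carry the same version in GENCODE 29 have the same coordinates there. The deposited gene length (other unit, bases of merged exons) served for TPM.

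Genes were filtered with filterByExpr by group (18289 kept), scaled by TMM and given 1 robust quasi-likelihood model of 4 group means (R 4.3.3, edgeR 4.0.16 and limma 3.58.1). Adjusted p-values are Benjamini-Hochberg over all genes tested, with a threshold of 0.05. On simulated data, with 200 genes changed, the fit was tested before use. Totals of 38597809 to 40017561 counts put the floor of 3 counts at 0.0733 to 0.0814 CPM. Poisson intervals are exact at 95% and cover counting error only. Promoter windows are RefSeq's, and all 6 members matched.

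The members and lists were chosen with earlier results of these data known. Named were the 6 members, other TM4SF rows, the 8 tested neighbours nearest to TM4SF18, in each list up to 3 genes higher and 3 lower with the smallest adjusted p at each harvest, the 5 genes most like TM4SF18 by Pearson correlation of log2 CPM (prior count 2; the fifth is not reported here), and MTHFD2. Alternatives were RLE scaling, no filter, DESeq2 1.42.0, only the groups compared, a replicate block and each library left out. Their use on neighbours and lists was added after seeing the data.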

Additional observations from a re-analysis of the deposited data

Results flagged for a closer look

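TM4SF18 was picked out because its 3 final wild-type libraries all lay below the 3 initial ones in CPM while its 3 final knock-out libraries all lay above theirs, which makes a difference of 1.90 on the log2 scale between the 2 changes over time. The fit of all genes called this difference, but no p is given and nothing is read from the call, because the gene was chosen with its values known. In TPM the knock-out libraries of the 2 harvests overlapped.

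ITGB8 was picked out because its change over time differed between the genotypes by 1.70 on the log2 scale (SE 0.243, edgeR adjusted p 0.00125). The wild type had 26.5 ± 7.81 CPM at first and 12.1 ± 0.573 CPM later, and the knock-out 15.2 ± 0.612 and 22.4 ± 3.91 CPM (SD, n = 3), and the difference lay between 1.48 and 1.91 when single libraries were left out.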

How the results depend on the processing

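Under the alternatives the log2 fold change of TM4SF18 lay between 3.81 and 4.18 at the initial harvest and 5.70 and 6.04 at the final harvest. Over time it lay between -1.89 and -1.50 in the wild type and 0.14 and 0.22 in the knock-out, and the interaction between 1.68 and 2.07. The groups compared did not overlap in CPM, so leaving out 1 library could hardly turn a sign. Nothing is read from the kept signs. With no filter all 6 members could be tested, and 0 of the 5 others passed. Counts of all genes called moved more. At the final harvest 3391 were called, and 2561 to 3895 leaving out single libraries. Over time in the wild type 1183 genes were called (578 with only the groups compared, 627 to 1399 leaving out single libraries). Over time in the knock-out 270 were called (599 by DESeq2, 484 with no filter, 728 with only the groups compared, 94 to 463 leaving out single libraries). In the interaction 235 were called (464 by DESeq2, 423 with no filter, 124 to 444 leaving out single libraries). At the initial harvest 3635 were called, and 2423 to 4615 leaving out single libraries. With a replicate block the 5 counts were 3539, 3298, 1123, 246 and 217, TM4SF18 had 3.98 and 5.88 at the 2 harvests, and the initial call of DDR1 was lost (-0.27), while 2 partners in place of 1 were called at the final harvest. Same-numbered libraries of different groups correlated above 0.1 in 6 of 18 pairs (-0.358 to 0.238), so the numbers were not taken as pairs. The cause of these moves was not tested. At these depths 3 of the 6 members were at or under the floor of 3 counts in every library.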
